A study of Mus musculus with 24 samples.

Results

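The heat shock and endoplasmic reticulum (ER) chaperones described here are 35 genes, chosen by symbol, that help other proteins fold in the cytosol, the mitochondrial matrix or the ER. All 35 were among the 24062 genes of the counts table, and all 35 passed the filter on low counts that kept 16313 genes for testing. Their levels were measured by RNA sequencing of the hippocampus of C57BL/6 mice, in a study that asked whether removal of the interleukin-1 receptor IL-1R1 from neurons alters the effect of social defeat by paired fighting. The groups were 5 IL-1R1 knockout (KO) stress, 6 KO control, 6 WT stress and 7 WT control libraries. The labels give C57BL/6 as the background of every group, and do not state what drove the deletion, the ages of the mice or whether each library is a separate mouse, so p-values measure the spread between these libraries, which may be technical. Il1r1 ran from 2.10 to 7.93 CPM (counts scaled to a library of 1000000) in KO libraries and from 1.99 to 7.31 CPM in WT libraries, and KO differed from WT by a log2 fold change of 0.04 ± 0.26 (SE) in controls. Since gene counts of whole hippocampus do not tell neurons from other cells that use the receptor, these values do not check the genotype labels.

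In the heat shock response, heat shock factors bind short repeats in the promoters of chaperone genes when misfolded proteins accumulate in the cytosol, and the Hsp70 and Hsp90 proteins they raise bind and refold those proteins. In the ER, misfolded protein draws the Hsp70 chaperone BiP, the product of Hspa5, away from the sensors of the unfolded protein response, and the factors XBP1 and ATF6 then raise the chaperones and disulfide isomerases of that compartment. Neurons depend on both systems, since they make large amounts of membrane and secreted protein and are not replaced. Hspd1 and Hspe1, listed with the cytosolic genes, form the chaperonin of the mitochondrial matrix.

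Promoters are shown as reference sequence only, and no relation between their motifs and the levels of the members was tested. RefSeq promoter windows of 300 bases (GRCm38.p6, the mm10 build) were found for 30 of the 35 members, and none was used for Hsp90ab1, Hspa8, Hyou1, Manf and Hsp90aa1. Both strands were searched for the ER stress element (CCAAT and CCACG spaced by 9 bases), the ER stress element II (ATTGG and CCACG spaced by 1 base) and the heat shock element (GAA, TTC and GAA, or TTC, GAA and TTC, each spaced by 2 bases). The ER stress element was in 39 of 32851 promoters (0.119%), among them those of 7 member genes: Hspa5, Hsp90b1 with 2 matches, Pdia6, Dnajc3, Creld2, Calr and Canx. The ER stress element II was in 12 promoters (0.0365%), among them Herpud1 and Dnajb11, and the heat shock element was in 198 (0.603%), among them Hsph1, Chordc1, Hspd1 and Hspe1. Hspd1 and Hspe1 lie head to head and share one pair of overlapping matches. The windows of Sdf2l1, Xbp1, Hspa1a and Hspa1b held none of the 3 motifs, which says only that these letters are not in these windows. In the stretches below capitals mark the motif, on whichever strand it was read.
Hspa5: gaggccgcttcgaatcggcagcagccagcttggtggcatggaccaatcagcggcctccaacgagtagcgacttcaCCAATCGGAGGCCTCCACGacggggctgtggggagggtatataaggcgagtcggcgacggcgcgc
Hsp90b1: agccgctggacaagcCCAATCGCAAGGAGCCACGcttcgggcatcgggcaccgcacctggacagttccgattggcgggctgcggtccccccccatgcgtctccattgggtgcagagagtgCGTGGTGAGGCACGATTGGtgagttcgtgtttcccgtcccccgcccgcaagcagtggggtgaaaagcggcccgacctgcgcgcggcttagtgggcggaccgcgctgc
Pdia6: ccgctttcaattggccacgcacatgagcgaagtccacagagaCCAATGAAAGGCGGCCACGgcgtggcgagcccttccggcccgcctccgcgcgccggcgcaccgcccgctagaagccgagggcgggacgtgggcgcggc
Dnajc3: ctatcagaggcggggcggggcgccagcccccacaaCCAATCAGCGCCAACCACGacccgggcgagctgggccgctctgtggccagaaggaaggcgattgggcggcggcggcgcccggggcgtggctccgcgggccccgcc
Creld2: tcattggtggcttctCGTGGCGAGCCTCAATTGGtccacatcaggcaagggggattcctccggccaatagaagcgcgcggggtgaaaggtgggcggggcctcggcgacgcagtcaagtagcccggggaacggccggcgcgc
Herpud1: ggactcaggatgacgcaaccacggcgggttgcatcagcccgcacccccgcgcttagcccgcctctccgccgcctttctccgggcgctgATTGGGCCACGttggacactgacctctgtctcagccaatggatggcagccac
Sdf2l1: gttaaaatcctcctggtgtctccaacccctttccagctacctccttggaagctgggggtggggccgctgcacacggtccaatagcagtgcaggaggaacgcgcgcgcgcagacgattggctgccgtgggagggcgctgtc
Hspe1: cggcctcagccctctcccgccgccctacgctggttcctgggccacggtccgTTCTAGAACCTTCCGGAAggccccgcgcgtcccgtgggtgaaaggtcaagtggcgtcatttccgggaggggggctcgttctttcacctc
The Hspa5 stretch lies at chr2:34771950-34772089 on the plus strand, Hsp90b1 at chr10:86705445-86705671 on the minus strand, Pdia6 at chr12:17266449-17266588 on the plus strand and Dnajc3 at chr14:118937792-118937931 on the plus strand. Creld2 lies at chr15:88819505-88819645, Herpud1 at chr8:94386289-94386428 and Hspe1 at chr1:55088008-55088147, all on the plus strand, and Sdf2l1 at chr16:17132384-17132523 on the minus strand. Each stretch is printed in the direction of its own gene. Sdf2l1 is shown as the member without a match that differed most between sets of libraries, a comparison described after those of the groups. Hspe1 is shown as a member with heat shock elements that did not pass between those sets.

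Libraries held 25711872 to 35148198 counts, and the members had 266 to 68863 counts in a library. The libraries fall into a pair of sets by their replicate number, found in earlier results from the ribosomal precursor transcript Rn45s and not named in the labels. Rn45s took 0.411% to 0.879% of the counts in 13 high-numbered libraries (KO stress 3 to 5, KO control 5 and 6, WT stress 3 to 6, WT control 4 to 7), against 2.42% to 5.05% in 11 low-numbered libraries. The summed CPM of 9 hippocampal pyramidal and granule markers was 516 to 1102 in high-numbered and 331 to 470 in low-numbered libraries, with no overlap. Of the high-numbered libraries, KO stress 3, KO stress 5 and WT stress 5 held 86.9 to 109 CPM of the thalamic marker Tcf7l2, against 5.66 to 16.7 CPM in the others, while the low-numbered libraries held 26.3 to 60.7 CPM. The summed CPM of 7 blood markers was 14.7 to 53.7 in KO stress, 5.0 to 13.7 in KO control, 34.8 to 74.2 in WT stress and 5.41 to 12.1 in WT control libraries. In bulk tissue fewer cells of a type and less RNA per cell cannot be told apart.

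Per kilobase of exon, the cytosolic chaperones that cells hold at all times stood highest. Over the 24 libraries, Hsp90ab1, the constitutive Hsp90, averaged 583 ± 47.8 CPM per kb (SD), and Hspa8, the constitutive Hsp70, averaged 453 ± 49.3 CPM per kb. Hsp90aa1, the stress-responsive Hsp90 that brain also expresses without stress, averaged 213 ± 17.04 CPM per kb. The calcium-binding lectin chaperone Calr followed with 163 ± 20.1 CPM per kb, and Stip1, which links Hsp70 to Hsp90, with 107 ± 12.2 CPM per kb. Hspe1 (64.8 ± 7.41), Hsp90b1 (63.2 ± 8.87), Pdia3 (60.3 ± 5.78), Hspa5 (60.0 ± 16.8) and Hspd1 (57.2 ± 3.36 CPM per kb) did not differ from their neighbours in this order beyond their spread. The inducible Hsp70 genes were low, with 9.60 ± 1.85 CPM per kb for Hspa1a and 9.39 ± 2.00 CPM per kb for Hspa1b, and the lowest members were Bag3 (5.82 ± 1.09), Chordc1 (5.05 ± 0.714) and Hspa4l (4.88 ± 0.812 CPM per kb). The length used merges the exons of all annotated transcripts of a gene, 11792 bases for Hspa4l and 7498 for Chordc1. By CPM alone Hspa4l (57.6) and Chordc1 (37.9) stood above Bag3 (14.9), Sdf2l1 (16.8), Hspb1 (17.8) and Hspb8 (20.9), so their place depends on that length. The members varied unequally between libraries. The highest library exceeded the lowest 3.20-fold for Sdf2l1, 2.71-fold for Hspb1 and 2.43-fold for Hspa5, but 1.19-fold for Hspd1 and 1.28-fold for Dnajb9 and P4hb.

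**Figure D1:**
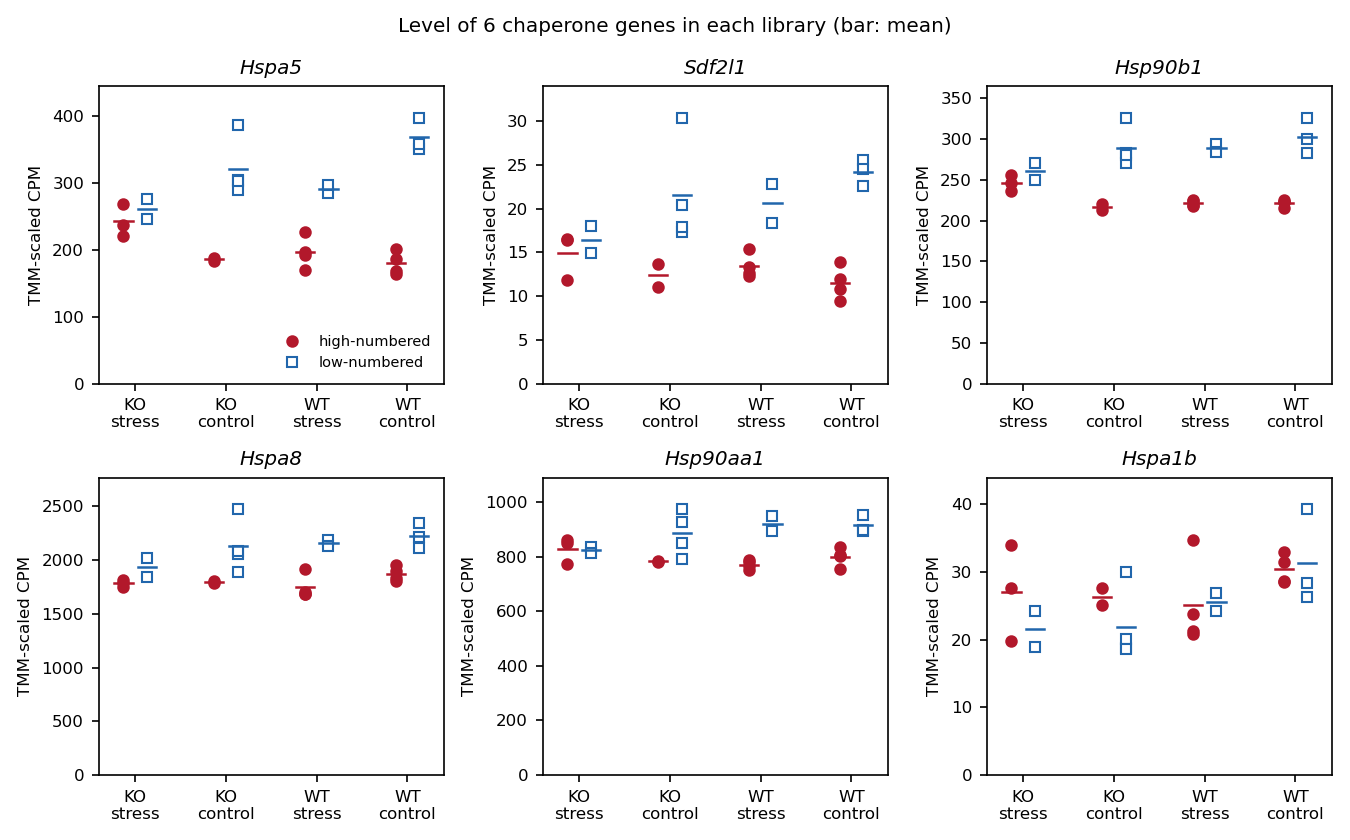
TMM-scaled CPM of 6 members in each of the 24 libraries by group, with filled circles for high-numbered and open squares for low-numbered libraries and a bar at each mean. Hspa5 was 164 to 201 CPM in high-numbered and 289 to 397 CPM in low-numbered control libraries, while stress and control libraries overlapped for every gene shown.

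Social defeat stress in KO mice left no member past the threshold. By the quasi-likelihood F test of edgeR with Benjamini-Hochberg adjustment over all genes, 0 of 35 members passed for stress against control in KO, where 0.00613% of all genes did. At an unadjusted p below 0.05 there were 0 members (3.97% of all genes), and DESeq2 called 0 members adjusted and 1 unadjusted. The member log2 fold changes had a median of -0.04, against 0.01 over all genes tested. They ran from -0.26 (Dnajb5) to 0.12 (Hspa1a), and the 95% intervals of 31 of 35 members lay within 0.5 of 0 on the log2 scale.

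The 6 members with the smallest p in KO were Dnajb5, Dnaja1, Hspa8, Creld2, Manf and Canx, and none of them passed. Dnajb5, a J-domain co-chaperone of Hsp70, had 139, 167, 124, 206 and 123 CPM in KO stress libraries, against a lowest, median and highest value of 153, 187 and 191 CPM in KO control libraries. The groups overlapped, and the log2 fold change was -0.26 ± 0.13 (SE, adjusted p = 0.988). Its 2 lowest KO values came from the libraries with thalamic transcripts, and without all 3 such libraries the log2 fold change was -0.09. Dnaja1, another J-domain partner of Hsp70, had 247, 223, 248, 254 and 227 CPM in KO stress libraries, against 227, 255 and 294 CPM (lowest, median, highest) in KO controls. Hspa8 had 1844, 2020, 1818, 1783 and 1755 CPM in KO stress libraries, against 1786, 1974 and 2473 CPM in KO controls. Both genes overlapped between the groups, with log2 fold changes of -0.11 ± 0.07 for Dnaja1 and -0.13 ± 0.09 for Hspa8. The ER proteins Creld2 and Manf, a secreted neurotrophic factor, gave -0.22 ± 0.17 and -0.17 ± 0.14, and the lectin chaperone Canx gave 0.10 ± 0.09.

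In WT mice stress likewise left 0 of 35 members past the threshold in edgeR, where 0.135% of all genes passed. There were 0 members at an unadjusted p below 0.05 (4.41% of all genes), and DESeq2 called 0 members adjusted and 0 unadjusted. The member median was -0.05, against -0.0013 over all genes, and 30 of 35 intervals lay within 0.5 of 0. The smallest p was that of Hspa1b, whose lowest, median and highest values were 20.9, 23.98 and 34.8 CPM in WT stress and 26.3, 28.7 and 39.2 CPM in WT control libraries (log2 fold change -0.28 ± 0.15, adjusted p = 0.9997). Its neighbour Hspa1a had 22.0, 26.0 and 40.0 CPM in WT stress and 29.4, 30.9 and 36.1 CPM in WT control libraries (-0.21 ± 0.14). In both genes most WT stress libraries lay below the WT controls and WT stress 6 lay among or above them, so the groups overlapped. Hspa1a and Hspa1b lie side by side on chromosome 17 (chr17:34969190-34972156 and chr17:34956436-34959238, mm10), and their coding sequences are 99.43% identical, so how reads were shared between them is uncertain. The small heat shock protein Hspb1 had 14.2, 17.4 and 26.0 CPM in WT stress and 10.9, 15.2 and 24.1 CPM in WT control libraries (0.27 ± 0.19). Pdia4, a disulfide isomerase, Hyou1, an ER partner of BiP that exchanges its nucleotide, and Hsp90ab1 gave -0.19 ± 0.14, -0.13 ± 0.09 and -0.09 ± 0.07.

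**Figure D2:**
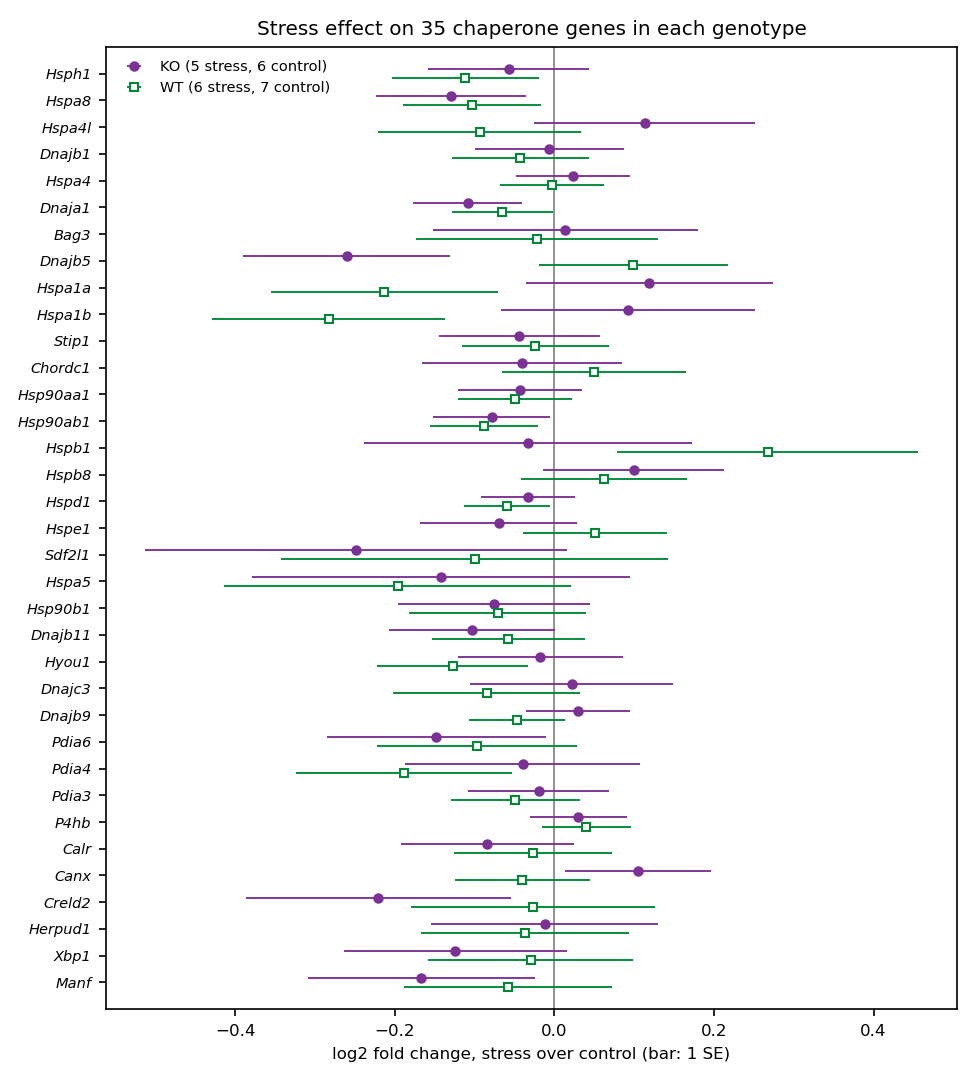
Log2 fold change of stress over control for the 35 members, with filled circles for KO and open squares for WT and bars of 1 SE. The values lie between -0.28 and 0.27, and none passed the test.

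Whether stress acted differently in KO and WT was tested as the KO minus the WT stress effect. In edgeR 0 of 35 members passed, as did 0% of all genes, with 0 members (2.35% of all genes) at an unadjusted p below 0.05, and DESeq2 called 0 adjusted and 1 unadjusted. Dnajb5 had the lowest difference (-0.36 ± 0.18) and Hspa1b the highest (0.38 ± 0.22), with Hspa1a at 0.33 ± 0.21. Hspb1 (-0.30 ± 0.28), Hspa4l (0.21 ± 0.19), an Hsp110 relative that recharges Hsp70, and Canx (0.14 ± 0.12) followed. These estimates are wide: 24 of 35 intervals lay within 0.5 of 0.

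Without stress, KO and WT differed in no member past the threshold. In edgeR 0 of 35 members passed (0% of all genes), 2 members had an unadjusted p below 0.05 (3.02% of all genes), and DESeq2 called 0 adjusted and 2 unadjusted. The 2 were the inducible Hsp70 genes. Hspa1b had a lowest, median and highest value of 18.5, 22.6 and 30.0 CPM in KO control and 26.3, 28.7 and 39.2 CPM in WT control libraries (log2 fold change -0.40 ± 0.15, unadjusted p = 0.0117). Hspa1a had 19.4, 25.0 and 34.7 CPM in KO control and 29.4, 30.9 and 36.1 CPM in WT control libraries (-0.31 ± 0.14). Most KO controls were below the WT controls in both genes, the groups overlapped, and the edgeR adjusted p of both was 0.9999. Hsp90ab1 (-0.09 ± 0.07), Hspb1 (0.25 ± 0.19) and the ER stress genes Herpud1 (0.14 ± 0.13) and Xbp1 (0.12 ± 0.13) had the next smallest p.

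Under stress, KO and WT again differed in no member past the threshold. In edgeR 0 of 35 members passed (0% of all genes), 1 had an unadjusted p below 0.05 (4.71% of all genes), and DESeq2 called 0 adjusted and 1 unadjusted. The 1 member was Dnajb5, with the KO stress values given above, against a lowest, median and highest value of 126, 203 and 224 CPM in WT stress libraries (-0.31 ± 0.13, adjusted p = 0.798). The lowest WT stress value was that of WT stress 5, the third library with thalamic transcripts, and without these 3 libraries the log2 fold change was -0.23. The part of these transcripts in the difference was not tested. Canx (0.14 ± 0.09), Hspe1 (-0.13 ± 0.10), Dnajb9 (0.09 ± 0.07), Hyou1 (0.13 ± 0.10) and Dnajc3 (0.15 ± 0.13) followed.

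Averaged over both genotypes, stress left 0 of 35 members past the threshold in edgeR, where 0.215% of all genes passed. There were 0 members at an unadjusted p below 0.05 (6.17% of all genes), and DESeq2 called 0 adjusted and 0 unadjusted. The member median was -0.05, against 0.0011 over all genes, with 28 members below 0 and 7 above, where 8076 of all genes were below 0 and 8237 above. This lean was not common to both number sets. Most members were above 0 in high-numbered and below 0 in low-numbered libraries, as counted further below. Stress held 7 high-numbered and 4 low-numbered libraries, and control held 6 and 7. The group fits, here and in each genotype, had no term for the number set. Most members were lower in high-numbered libraries, as described below. In an alternative fit with the number set as a term, the 6 members named next kept their direction and none passed. The lean over all 35 members was not counted in that fit, so the part of this imbalance in it was not tested. The smallest p belonged to Dnaja1 (-0.09 ± 0.05), Hspa8 (-0.12 ± 0.06), Hsp90ab1 (-0.08 ± 0.05), Pdia6 (-0.12 ± 0.09), Hsph1 (-0.08 ± 0.07) and Manf (-0.11 ± 0.10). Of the 95% intervals, 33 of 35 lay within 0.5 of 0.

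No gene of the 7 related lists of chaperone and stress pathway genes passed in this average either. In the list of heat shock factors and other cytosolic chaperones, 0 of 28 passed, with Dnaja4 (-0.14) and Dnajb6 (-0.09) at the smallest p. In the CCT chaperonin and prefoldin list (0 of 13) these were Cct6a (-0.06) and Cct5 (-0.05). Among the unfolded protein response sensors and ER-associated degradation genes (0 of 19) they were Derl1 (0.04) and Atf6 (-0.10), and among other ER folding and translocation genes (0 of 25) Dnajc1 (-0.16) and Spcs3 (-0.11). In the list of ATF4 and CHOP targets (0 of 16) Ddit4 gave 0.17 and Nupr1 0.14, and among mitochondrial chaperones and proteases (0 of 11) Spg7 gave -0.09 and Clpp 0.10. The cold-inducible Rbm3 (-0.15) and Cirbp (-0.03) did not pass.

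Between the library number sets most members differed, all in one direction. In a fit that keeps the 4 group means, 20 of 35 members passed in edgeR (57.1%), against 20.8% of all genes, and all 20 were lower in the 13 high-numbered than in the 11 low-numbered libraries. Over all genes 9.56% were lower and 11.2% higher, while 0 members were higher in edgeR. None of the 4 members above 0 had an unadjusted edgeR p below 0.05. DESeq2 called 25 members, where it called 3925 genes in all. At an unadjusted p below 0.05 there were 26 members (33.5% of all genes). The median member log2 fold change was -0.23, against 7.62e-05 over all genes. ER members made up 14 of the 20, of 17 listed, with a median of -0.33, and the cytosolic and mitochondrial members made up 6, of 18 listed, with a median of -0.11. What the number sets are is not stated in the labels. The summed hippocampal markers and Rn45s parted with the sets without overlap, so that number set, Rn45s and hippocampal marker content cannot be told apart. The summed thalamic and habenular markers overlapped between the sets.

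The largest member differences were those of BiP and a partner of it. Hspa5, the ER Hsp70, had a lowest, median and highest value of 164, 191 and 269 CPM in high-numbered and 245, 303 and 397 CPM in low-numbered libraries. Its log2 fold change of -0.67 ± 0.09 (SE) is a 1.59-fold lower level in high-numbered libraries (edgeR adjusted p = 1.56e-05). Sdf2l1, a small ER protein that works with BiP and its J-domain partners, had 9.49, 12.7 and 16.6 CPM in high-numbered and 14.9, 20.4 and 30.4 CPM in low-numbered libraries, 1.63-fold lower (-0.70 ± 0.11, adjusted p = 0.000130). For Hspa5, 1 high-numbered library lay above the lowest low-numbered one and 1 low-numbered library below the highest high-numbered one. For Sdf2l1 these were 3 high-numbered and 1 low-numbered libraries. In both genes the mean was lower in high-numbered libraries within each of the 4 groups. This held for 14 of the 20 members that passed. For Dnajc3, Pdia4, Creld2, Hsp90aa1, Chordc1 and Hspb1 the mean was lower in 3 of the 4 groups only. How many of all genes did so was not counted. Hsp90b1, the ER Hsp90 known as GRP94, had 213, 223 and 256 CPM in high-numbered and 250, 284 and 326 CPM in low-numbered libraries (-0.35 ± 0.05, adjusted p = 1.48e-05). Dnajb11, a J-domain partner of BiP, had 53.3, 56.7 and 60.9 CPM in high-numbered and 60.5, 68.8 and 80.3 CPM in low-numbered libraries (-0.28 ± 0.04). In each of these 2 genes 1 library of either set lay within the other set's range. Hyou1 (-0.26 ± 0.05) and Dnajc3, a J-domain protein that also restrains the kinase PERK (-0.25 ± 0.07), passed as well, while Dnajb9, a J-domain protein that acts on the sensor IRE1, did not (-0.03 ± 0.05).

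Among the disulfide isomerases, which form and shuffle the disulfide bonds of secreted proteins, 3 of 4 passed. Pdia6 had a lowest, median and highest value of 91.7, 102 and 113 CPM in high-numbered and 110, 132 and 154 CPM in low-numbered libraries (-0.39 ± 0.06, edgeR adjusted p = 2.96e-05). Pdia3, which acts on glycoproteins with the lectin chaperones, had 161, 174 and 195 CPM in high-numbered and 189, 199 and 225 CPM in low-numbered libraries (-0.23 ± 0.04). For Pdia6, 2 high-numbered and 1 low-numbered libraries lay within the other set's range, and for Pdia3 1 high-numbered and 3 low-numbered libraries did. Pdia4 passed (-0.34 ± 0.08), and P4hb, the founding isomerase of the family, did not (-0.10 ± 0.04, adjusted p = 0.0745). Of the lectin chaperones that retain unfolded glycoproteins, Calr passed (-0.26 ± 0.05) and Canx did not (-0.15 ± 0.06, adjusted p = 0.0585).

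All 4 ER stress regulators and secreted factors passed. Xbp1, whose spliced form drives chaperone genes, had a lowest, median and highest value of 61.9, 75.5 and 86.1 CPM in high-numbered and 84.2, 99.1 and 114 CPM in low-numbered libraries (-0.38 ± 0.06, edgeR adjusted p = 0.000114). Gene counts do not tell its spliced from its unspliced form. Herpud1, an ER membrane protein of the degradation pathway, had 47.7, 53.7 and 70.5 CPM in high-numbered and 63.6, 69.4 and 85.2 CPM in low-numbered libraries (-0.38 ± 0.06). For Xbp1, 1 library of either set lay within the other set's range, while for Herpud1 2 high-numbered and 6 of the 11 low-numbered libraries did. Creld2 (-0.39 ± 0.09) and Manf (-0.33 ± 0.07), both secreted during ER stress, were also lower in high-numbered libraries.

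In the cytosol Hspa8, Hsp90aa1 and 3 of their partners were lower in high-numbered libraries, as was the small heat shock protein Hspb1, and the inducible Hsp70 pair did not pass. Hspa8 had a lowest, median and highest value of 1685, 1803 and 1954 CPM in high-numbered and 1844, 2110 and 2473 CPM in low-numbered libraries (-0.23 ± 0.05, edgeR adjusted p = 0.000845). Hsph1, the Hsp110 that recharges Hsp70, had 200.1, 220 and 239 CPM in high-numbered and 239, 255 and 312 CPM in low-numbered libraries (-0.25 ± 0.05), and it was the 1 member of 35 whose ranges did not overlap, as was so for 0.699% of all genes. Stip1 had 194, 204 and 230.0 CPM in high-numbered and 223, 247 and 293 CPM in low-numbered libraries (-0.25 ± 0.05). Hsp90aa1 had 749.7, 785 and 861 CPM in high-numbered and 793, 895 and 973 CPM in low-numbered libraries (-0.16 ± 0.04), where 5 high-numbered and 4 low-numbered libraries lay within the other set's range. Chordc1, an Hsp90 co-chaperone, passed at an edgeR adjusted p of 0.0271 (-0.24 ± 0.07), which was 0.0711 without KO control replicate 5 and 0.0557 without WT control replicate 1. Hspb1 gave -0.42 ± 0.12 (adjusted p = 0.0129).

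Against these, Hspa1a (0.11 ± 0.11) and Hspa1b (0.11 ± 0.11), the genes that rise most in a classical heat shock response, did not pass, nor did Hsp90ab1 (0.10 ± 0.05) and Dnajb5 (0.06 ± 0.09). Hspa4 (-0.12 ± 0.04), Hspa4l (-0.23 ± 0.09), Dnaja1 (-0.11 ± 0.04) and Dnajb1 (-0.14 ± 0.06), all partners of Hsp70, had edgeR adjusted p-values of 0.0589 to 0.0838. Bag3 (-0.09 ± 0.12), which brings Hsp70 clients to autophagy, and its partner Hspb8 (-0.04 ± 0.08) did not pass. The mitochondrial chaperonin genes Hspd1 (-0.05 ± 0.04) and Hspe1 (-0.05 ± 0.07) did not pass either, and their intervals reached from -0.14 to 0.03 and from -0.19 to 0.09. Canx, Hspa4, Hspa4l, Dnaja1 and P4hb stood near the threshold: leaving out KO stress replicate 2 brought all 5 past it, with 25 members called in all, and leaving out any other single library gave 19 to 23. The calls over all genes moved as well, from 2767 to 3924 without single libraries.

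**Figure D3:**
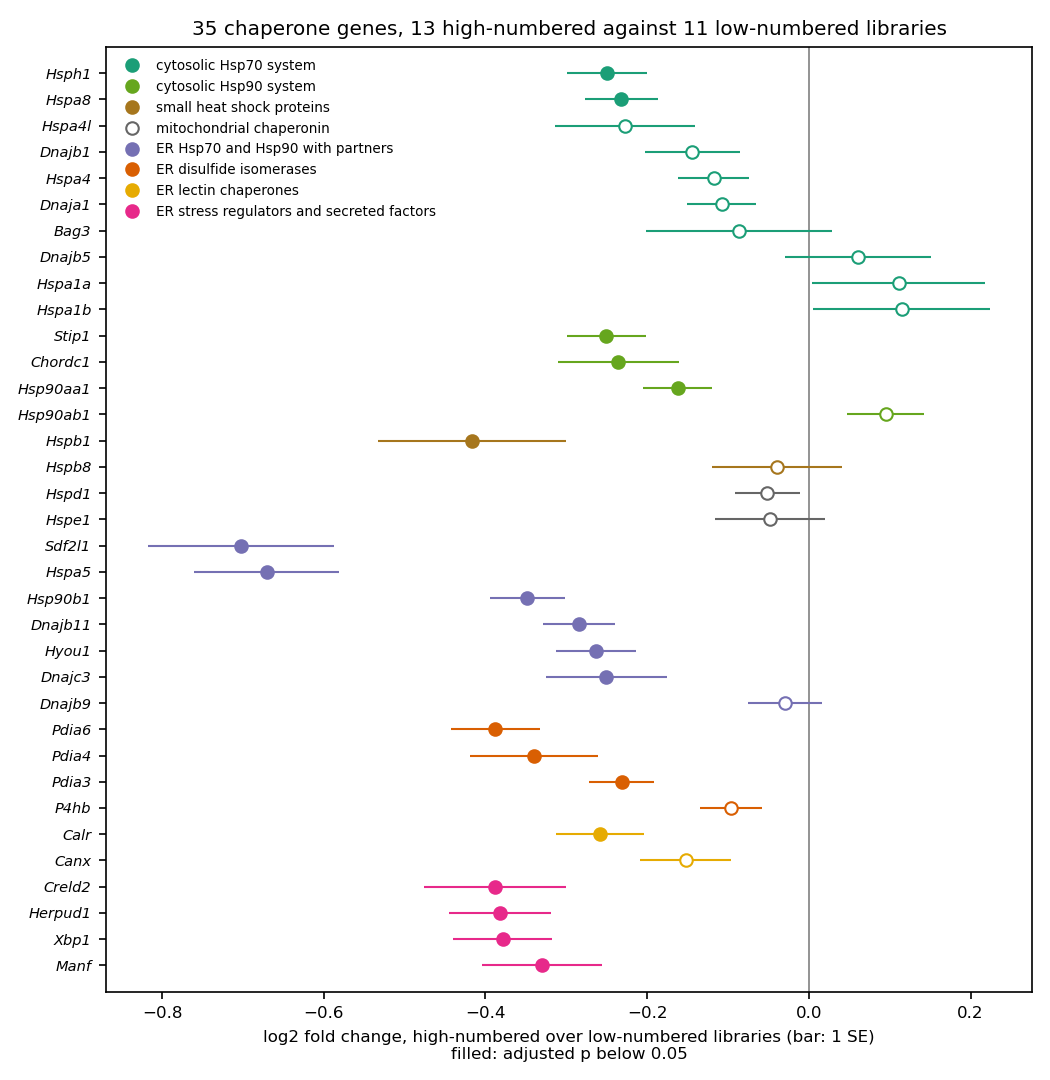
Log2 fold change of high-numbered over low-numbered libraries for the 35 members, coloured by role, with bars of 1 SE and filled points where the adjusted p is below 0.05. The 20 filled points all lie below 0, and Hspa5 and Sdf2l1 lie farthest, at -0.67 and -0.70.

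The number sets were also compared within control and within stress libraries. In the 13 controls alone 25 of 35 members passed in edgeR, against 24.4% of all genes, and for 16 members the 6 high-numbered and 7 low-numbered controls did not overlap, 14 of them ER genes, against 11% of all genes. In the 11 stress libraries alone 0 members passed in edgeR (2.13% of all genes) and 13 had an unadjusted p below 0.05 (18.9% of all genes), and Hsph1 and Dnajb11 were the 2 members of 35 whose ranges did not overlap, against 4.54% of all genes, a share near that of the members. That subset holds 7 high-numbered and 4 low-numbered libraries, and DESeq2 was not run on it. Without the 3 stress libraries with thalamic transcripts, 26 members passed (31.1% of all genes), among them Dnajb5 (0.17, adjusted p = 0.0375) and Hsp90ab1 (0.13, adjusted p = 0.0224), both higher in high-numbered libraries.

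The stress effect was also compared between the number sets, as an alternative chosen after seeing the data. The difference (the stress effect in high-numbered minus that in low-numbered libraries) passed for 0 of 35 members in edgeR, where 0.0429% of all genes passed, and DESeq2 was not run for it. At an unadjusted p below 0.05 there were 15 members, 42.9%, against 17% of all genes. Its median was 0.19 over the members and 0.03 over all genes. The smallest p belonged to Pdia4 (0.51 ± 0.12, adjusted p = 0.0948), Hspa5 (0.57 ± 0.14, adjusted p = 0.105) and Dnajc3 (0.45 ± 0.12, adjusted p = 0.158), followed by Hyou1 (0.27 ± 0.08), Xbp1 (0.33 ± 0.10) and Hspa4l (0.44 ± 0.15).

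Hspa5, named above for its small p, did not pass for this difference, and its values are given as an example. Among high-numbered libraries it had 269, 221 and 237 CPM in KO stress against 183 and 188 CPM in KO control, and 170.1, 191, 226 and 197 CPM in WT stress against 164, 186, 168 and 201 CPM in WT control. The KO stress libraries were above the KO controls, and the WT groups overlapped. Among low-numbered libraries it had 276 and 245 CPM in KO stress against 386, 303, 289 and 303 CPM in KO control, and 284 and 296 CPM in WT stress against 397, 350 and 358 CPM in WT control. There the stress libraries of each genotype were below their controls without overlap, but each genotype had only 2 of them. How many of all genes split in this way was not counted. The mean stress effect of Hspa5 was 0.26 ± 0.08 in high-numbered libraries (edgeR adjusted p = 0.184) and -0.32 ± 0.09 in low-numbered libraries (adjusted p = 0.784). Over all members, 28 estimates lay above 0 and 7 below in high-numbered libraries (median 0.09). In low-numbered libraries 2 lay above 0 and 33 below (median -0.11). All 17 ER members had an estimate above 0 in high-numbered libraries (median 0.12) and below 0 in low-numbered libraries (median -0.16). The split was thus not limited to ER members. The medians over all genes were 0.01 and -0.01, and the signs over all genes were not counted within each set. No member passed in either set, with smallest adjusted p-values of 0.131 and 0.784. Of the 7 high-numbered stress libraries, 3 are those with thalamic transcripts. Without them the difference was 0.43 for Hspa5 (adjusted p = 0.400), 0.50 for Pdia4 and 0.30 for Dnajc3.

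**Figure D4:**
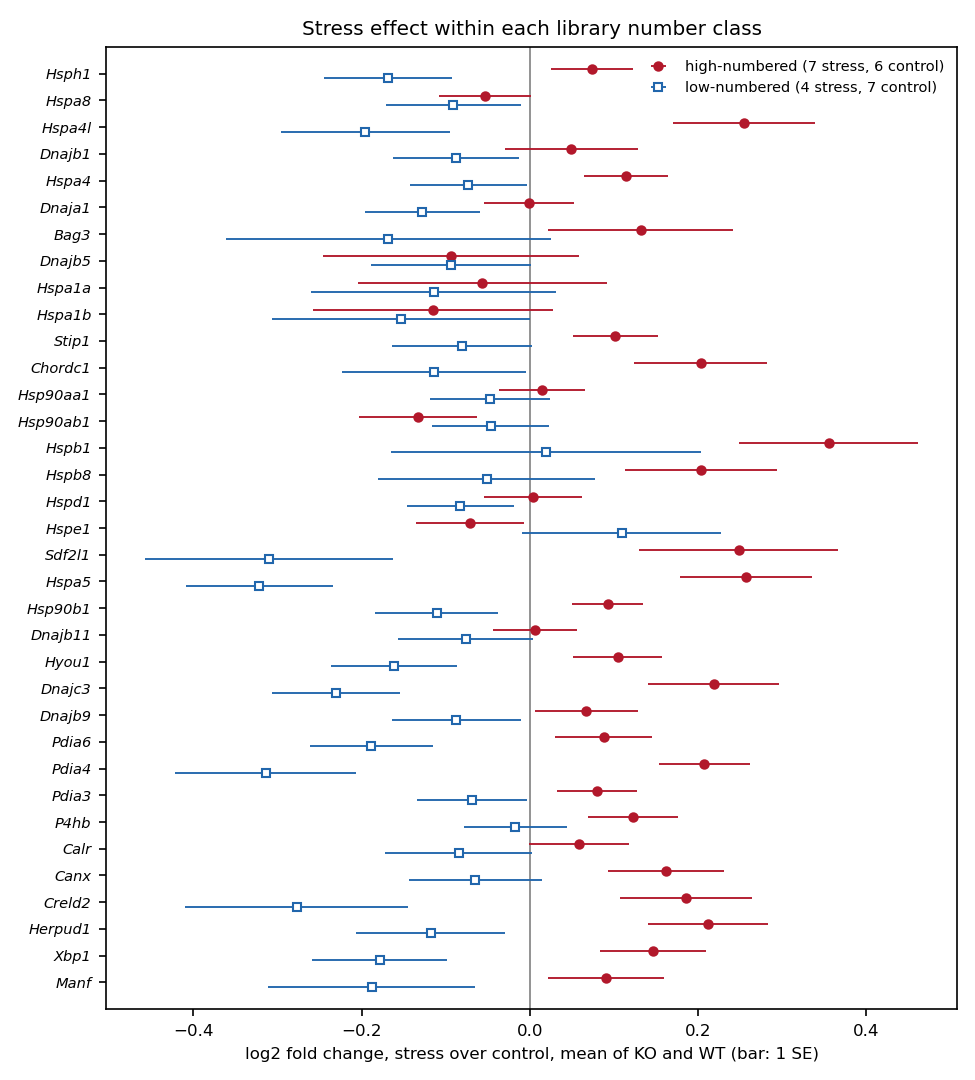
Log2 fold change of stress over control, averaged over KO and WT, with filled circles for high-numbered and open squares for low-numbered libraries and bars of 1 SE. Of all members shown, 28 lie above 0 in high-numbered and 33 below 0 in low-numbered libraries. The 17 ER members, from Sdf2l1 down, lie above 0 in high-numbered and below 0 in low-numbered libraries. No member passed the test in either set.

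The related pathway lists held few genes that passed between the number sets, beside the 20.8% of all genes that did. The shares of 5 of the 6 lists below lay under that background, and that of the ATF4 and CHOP targets lay above it, so the named genes are given as values and not as results about their pathways. Among heat shock factors and other cytosolic chaperones 5 of 28 genes passed in edgeR, 1 higher and 4 lower in high-numbered libraries: the testis-rich Hsp70 Hspa2 (0.40 ± 0.08) was higher, and the Hsp90 co-chaperone Fkbp4 (-0.29 ± 0.06), the small heat shock protein Cryab (-0.33 ± 0.09) and Dnajb2 (-0.23 ± 0.07) were among the lower. Of the CCT chaperonin and prefoldin genes 1 of 13 passed, Pfdn2 (-0.18 ± 0.06). Of the unfolded protein response sensors and ER-associated degradation genes 3 of 19 passed, with Derl3, a channel component that ER stress induces, lower (-0.60 ± 0.18) and the sensor relative Atf6b (0.24 ± 0.08) and Edem2 (0.17 ± 0.05) higher. Of other ER folding and translocation genes 4 of 25 passed: the glucosyltransferase Uggt1 (-0.32 ± 0.06), the prolyl isomerase Fkbp2 (-0.33 ± 0.07) and the oxidase Ero1b, listed as Ero1lb (-0.33 ± 0.10) were lower and the prolyl isomerase Ppib (0.22 ± 0.05) was higher. Of ATF4 and CHOP targets 5 of 16 passed, with Cebpb (0.51 ± 0.14), Sesn2 (0.30 ± 0.09) and Ppp1r15a (0.25 ± 0.08) higher and Ddit3, which encodes CHOP, lower (-0.22 ± 0.07). Of mitochondrial chaperones and proteases 1 of 11 passed, Afg3l2 (-0.22 ± 0.04). The medians of these 6 lists lay between -0.05 and 0.08.

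Both cold-inducible RNA-binding protein genes passed and were higher in high-numbered libraries, as were 11.2% of all genes. Rbm3 had a lowest, median and highest value of 65.1, 115 and 139 CPM in high-numbered and 56.8, 74.4 and 91.7 CPM in low-numbered libraries (0.56 ± 0.10, edgeR adjusted p = 0.000408). Cirbp had 74.7, 98.8 and 123 CPM in high-numbered and 53.1, 78.9 and 105 CPM in low-numbered libraries (0.34 ± 0.10, adjusted p = 0.0214). Both ranges overlapped between the sets. Of the marker lists, 9 of 9 hippocampal and 6 of 8 microglial genes were higher in high-numbered libraries, 2 of 12 thalamic and habenular genes were lower, and 0 of 9 oligodendrocyte genes passed, where 20.8% of all genes passed in either direction. Of the endothelial genes 5 of 10 were higher and 1 lower, of the astrocyte genes 1 of 8 was higher and 3 lower, and of the pericyte and smooth muscle genes 2 of 8 were higher. Of 5 blood genes tested 2 were higher, of 8 hypothalamic genes 1 was lower, and 0 of 12 choroid plexus genes passed. The summed CPM of the microglial markers was 361 to 495 in high-numbered and 314 to 363 in low-numbered libraries, and that of the thalamic and habenular markers was 117 to 909 in high-numbered and 298 to 636 in low-numbered libraries. That of the endothelial markers was 281 to 466.5 in high-numbered and 265 to 368 in low-numbered libraries, that of the astrocyte markers 1857 to 2335 in high-numbered and 1887 to 2225 in low-numbered libraries, and that of the oligodendrocyte markers 3737 to 11477 in high-numbered and 5764 to 9152 in low-numbered libraries. That of the pericyte and smooth muscle markers was 184 to 266 in high-numbered and 168 to 222 in low-numbered libraries, and that of the blood markers 6.65 to 74.2 in high-numbered and 5.0 to 35.1 in low-numbered libraries. Of all these lists, 1 blood gene was at 0 in every library. The part of these markers in the chaperone differences was not tested.

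Pairs of members were compared across libraries within each number set, since the sets stand apart, in 16 relations whose permutation p-values were adjusted over the 16. Hspa5 and Hsp90b1 had Pearson r = 0.73 (adjusted p = 0.00962) and Spearman rho = 0.46 (adjusted p = 0.127) over the 13 high-numbered libraries, and r = 0.90 (adjusted p = 0.000880) and rho = 0.79 (adjusted p = 0.0137) over the 11 low-numbered libraries. Without the 2 libraries farthest from the median of Hspa5, r was 0.38 in high-numbered and 0.77 in low-numbered libraries. The size of r in the high-numbered libraries thus depended on those 2. Leaving them out also narrows the range of Hspa5, so it cannot show that the relation rested on them alone. Hspa5 and Xbp1 had r = 0.64 (adjusted p = 0.0273) and rho = 0.70 (adjusted p = 0.0186) in high-numbered and r = 0.82 (adjusted p = 0.00633) and rho = 0.86 (adjusted p = 0.00436) in low-numbered libraries, and 0.49 and 0.72 without the 2 farthest libraries. Hspa5 and Sdf2l1 had r = 0.58 (adjusted p = 0.0501) and rho = 0.55 (adjusted p = 0.0749) in high-numbered and r = 0.84 (adjusted p = 0.00467) and rho = 0.76 (adjusted p = 0.0168) in low-numbered libraries, and 0.60 and 0.71 without the 2 farthest.

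The closest pair was Hspa1a and Hspa1b, with r = 0.955 in high-numbered and 0.93 in low-numbered libraries (rho = 0.93 in high-numbered and 0.90 in low-numbered libraries, all adjusted p-values at or below 0.00312), in genes that may share reads. Hspa8 and Hsp90ab1 had r = 0.72 (adjusted p = 0.00962) in high-numbered and 0.93 (adjusted p = 0.000880) in low-numbered libraries, with rho = 0.71 and 0.74. Hspa1b and Dnajb1, both targets of heat shock factor, had r = -0.50 (adjusted p = 0.0886, rho = -0.54) in high-numbered and r = 0.80 (adjusted p = 0.00633, rho = 0.83) in low-numbered libraries, and the difference between the sets was not tested. Hsp90aa1 and Hsph1 had r = 0.53 (adjusted p = 0.0752, rho = 0.51) in high-numbered and r = 0.76 (adjusted p = 0.0129, rho = 0.89) in low-numbered libraries. Across the compartments, Hspa5 and Hspa1b had r = -0.20 (adjusted p = 0.516, rho = -0.20) in high-numbered and r = 0.68 (adjusted p = 0.0300, rho = 0.52 with adjusted p = 0.122) in low-numbered libraries, where r was 0.33 without the 2 farthest libraries. These libraries share stress and genotype groups and tissue composition, which the relations were not adjusted for.

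**Figure D5:**
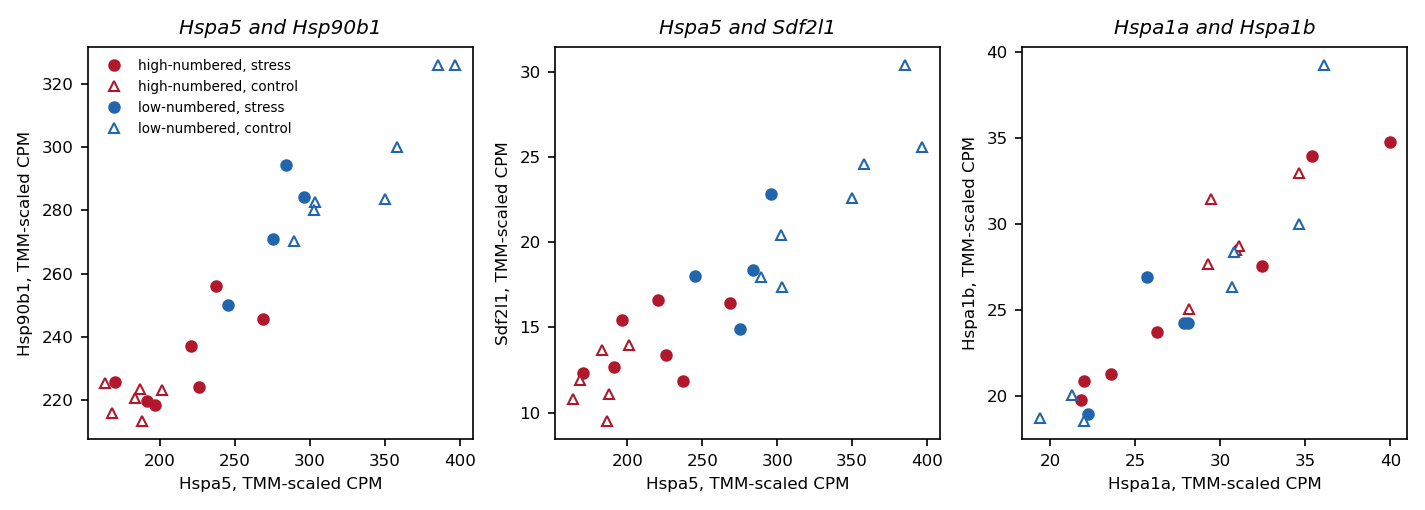
TMM-scaled CPM of Hsp90b1 and Sdf2l1 against Hspa5 and of Hspa1b against Hspa1a in each library, with filled circles for stress, open triangles for control, red for high-numbered and blue for low-numbered libraries. In the left and middle plots the high-numbered libraries lie at the lower left, while the sets mix along one line for Hspa1a and Hspa1b.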

How the data were processed

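Hippocampal RNA of 24 libraries was sequenced, and the authors deposited raw whole-number counts per gene symbol. STAR and DESeq2 are named as tools and mm10 as the build, per the submitters' processing notes, without versions. Counter, annotation and strand setting: not given in the sources used here. Among counts of 1 to 10, even ones made up 70.9% to 75.8% of a library, so mates appear to have been counted separately. No row lacked a gene name, and no column of the table was left without a sample. The authors' normalized counts and their table of 1 comparison were not used here.

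Counts were filtered with edgeR (minimum count 10) and tested with its quasi-likelihood F test (edgeR 4.0.16, R 4.3.3, robust fit, TMM factors), as contrasts of the 4 group means or as a term for the library number set beside them. P-values were adjusted by Benjamini-Hochberg over the 16313 genes, with a threshold of 0.05. Reported CPM use TMM-scaled library sizes, and 95% intervals use the SE and the residual degrees of freedom (20 for group comparisons, 19 for the number sets). The Wald test of DESeq2 1.42.0, other filters and size factors, subsets of libraries, a replicate block and leaving out each library were alternatives. Depth of 25711872 to 35148198 counts puts 3 reads at 0.0854 to 0.117 CPM, a floor that covers counting error only. Correlations used log2(CPM + 0.5) and 100000 permutations. On simulated data with 100 genes changed per size, 76% of changes of 0.5 and 94% of changes of 1 (log2) were recovered for stress in WT, and 88% and 100% for the number sets. The simulated spread was that left after the number sets were fitted, with no difference between the sets, and genes of low mean level were not changed. The stress tests had no term for the sets, so these shares do not hold for members that differed between them, such as Hspa5. Its SE was 0.22 for stress in WT and 0.09 between the sets.

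All members are named. Full values are given for members that passed, filled up to 6 per group comparison by smallest p, and for 12 members, at most 8 of one compartment, between the number sets. For each pathway list up to 4 genes that passed, or the 2 with the smallest p, are named in the average stress effect and between the number sets. Members, lists and number sets were chosen with earlier results of these data known. The planned look at protein C termini was not made, since no protein table was used here.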

Additional observations from a re-analysis of the deposited data

Results flagged for a closer look

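Of 140 sets of values (35 members in 4 groups), 8 held a library far from the others of its group by a gap test, and chance marks about 1 in 20 such groups. KO control replicate 1 stood highest for Dnajb1, with 81.5 CPM against 65.4 to 69.1 CPM in its group, for Hspb1, with 29.5 CPM against 14.6 to 19.8 CPM, and for Hspb8, with 25.1 CPM against 18.4 to 20.2 CPM. WT stress replicate 6 stood highest for Hspa1a, with 40.0 CPM against 22.0 to 27.8 CPM, and for Hsp90ab1, with 2022 CPM against 1598 to 1755 CPM. Hspa4 had 208 CPM in KO stress replicate 5, a library with thalamic transcripts, against 186 to 191 CPM in the others. Dnajb5 had 153 CPM in KO control replicate 2 against 183 to 191 CPM, and Pdia4 had 44.0 CPM in WT stress replicate 2 against 34.2 to 36.0 CPM. No cause was tested.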

How the results depend on the processing

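No chaperone passed in any group comparison under any alternative or without any single library. Over all genes, stress in KO gave 1 call, 7 by DESeq2, 0 with no filter, without the 3 libraries with thalamic transcripts, with the number set as a term or in either set alone, and 0 to 2 without single libraries. Stress in WT gave 22 calls, 59 by DESeq2 and 0 in low-numbered libraries. KO against WT in controls gave 0 calls and 3 by DESeq2. The average stress effect gave 35 calls, 74 by DESeq2, 20 without the thalamic libraries, 0 in low-numbered and 69 in high-numbered libraries. The number sets gave 3385 calls, 5165 without the thalamic libraries and 336 in stress libraries, where 0 chaperones passed, against 20. The number set interaction, chosen after seeing the data, gave 7 calls, 1 without the thalamic libraries and 0 to 13 without single libraries. With a replicate block the calls were 1 for stress in KO, 24 for stress in WT and 36 for the average, with 0 chaperones. Same-numbered libraries correlated from -0.46 to 0.54 over 33 pairs, 17 of them over 0.1. Differently numbered libraries were not compared beside them, so these values do not settle whether the numbers pair the libraries. Directions turned in estimates that had not passed. For stress in KO, Canx was -0.0043 without the thalamic libraries and -0.0080 in low-numbered libraries, and Dnaja1 was 0.051, Creld2 0.22 and Manf 0.13 in high-numbered libraries. In high-numbered libraries stress in WT gave 0.023 for Pdia4 and 0.0069 for Hyou1, and the average gave 0.088 for Pdia6, 0.074 for Hsph1 and 0.091 for Manf. In low-numbered libraries KO against WT gave -0.076 for Xbp1 in controls, and -0.0016 for Canx and -0.054 for Dnajc3 under stress. Between the number sets Hspe1 was 0.037 in controls, and Hspa4l was 0.0071, Bag3 0.076, Hspb8 0.089 and Dnajb9 0.042 in stress libraries; without single libraries Hspb8 ran from -0.091 to 0.0069. The cause was not tested in any of these. Small subsets, down to 4 low-numbered stress libraries, limit what can be detected.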
